A study of Mus musculus with 36 samples.

Results

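The genes described here are 8 that serve the packaging and methylation of newly copied DNA, namely Chaf1a, Chaf1b, Asf1b, Slbp, Dnmt1, Uhrf1, Hells and Cdca7, followed in mouse hepatocytes that received an adenoviral vector labelled GK, vectors for the regulatory protein GKRP (encoded by Gckr), or both. They were selected by name for this function, and the selection was made with their CPM (read counts scaled to library size) across the 10 conditions already known. Their levels with the GKRP vectors relative to cultures without them are therefore given as a description. A gene called in one of those comparisons is named so to place it among all genes, and such calls support nothing. The 8 genes are 8 of 52230 with a matched transcript, and all 8 were among the 12177 genes that passed a filter on low counts.

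RNA was sequenced from 36 hepatocyte cultures of 3 female mice aged 14 weeks, from a strain carrying the leucine variant of GKRP (Gckr-446L in mouse 1 and mouse 2 and Gckr-446P/L in mouse 3 per the labels, whereas the methods describe homozygotes). UN cultures had no vector, and adenoviral vectors supplied human GKRP with proline (hP) or leucine (hL) at the variant residue, or mouse GKRP with proline (mP) or leucine (mL), all at endogenous GK. The same set was repeated with the GK vector, giving GK alone, GK_hP, GK_hL, GK_mP and GK_mL. Every GKRP vector was given at 10 × 10⁶ pfu/ml. Per the methods, the titre of the GK vector was chosen to raise GK 2 to 4 fold above endogenous, and its value is not stated. The dose of virus therefore differed between cultures with a GKRP vector and their controls, UN or GK alone. All 10 conditions shared 24 h of culture in 5 mM glucose, 10 nM insulin and 10 nM dexamethasone and then 4 h in 25 mM glucose. Among the groups analysed here, none had a vector that carried neither GK nor GKRP, so an effect of the vector itself and an effect of GKRP cannot be told apart in any comparison with UN, and the GKRP vectors with GK added a further vector to that of GK alone. UN and GK had 2 cultures per mouse, which were summed, so each condition had n = 3 mice.

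In dividing cells, chromatin assembly factor 1 (CAF-1), of which Chaf1a and Chaf1b are the large and the middle subunit, deposits histones H3 and H4 on DNA behind the replication fork. Asf1b hands these histones to CAF-1, and Slbp binds the stem-loop that ends the messenger RNAs of the replication-dependent histones. Uhrf1 recognises hemimethylated CpG sites and brings in Dnmt1, the maintenance DNA methyltransferase, while Hells is a nucleosome remodeller that Cdca7 recruits and activates. Most hepatocytes of the adult liver are outside the cell cycle.

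Stretches of the members' promoters are shown first, because the 8 genes were chosen with a shared pattern in view and E2F factors are known regulators of many S-phase genes. RefSeq promoter windows, from 250 bases before to 50 bases after each annotated start, were given for all 8 genes (11 windows, table build GRCm38.p6), and all 11 occurred exactly once in GRCm39, whose coordinates are printed. They were searched on both strands for 4 E2F-type runs and for the letters of the NF-Y box. Of all 32851 windows in the table, TTCCCGC occurred in 4.6%, the run TTGGCGC in 2.45%, the run TTCGCGC in 1.59%, the run TTGCCGC in 1.81% and the NF-Y letters CCAAT in 37.4%. In the following stretches of 30 bases, written 5′ to 3′ on the strand of the gene, capitals mark an E2F-type run or its reverse complement (the first 6) or CCAAT or its reverse complement (Slbp and Asf1b).
Chaf1a (chr17:56347349-56347378, plus strand): ggccgcggtggTTGCCGCggTTCCCGCcaa
Chaf1b (chr16:93680550-93680579, plus strand): ctcctccgaggcGCGGGAAtgggattccca
Uhrf1 (chr17:56610277-56610306, plus strand): ttgctttctcgcTTCCCGCcacagcgccag
Hells (chr19:38919370-38919399, plus strand): gttTTCCCGCgaaagagaagcGCGCGAAtt
Cdca7 (chr2:72306480-72306509, plus strand): ctgcgtcccggcGCGGGAAagccggtggcc
Dnmt1 (chr9:20864121-20864150, minus strand): tggtttccgcgcGCGCGAAaaagccggggt
Slbp (chr5:33810001-33810030, minus strand): ctgcCCAATctcccgCCAATatccctcggg
Asf1b (chr8:84682273-84682302, plus strand): ccttagcggcgATTGGctggaaggcggagc

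At least 1 E2F-type run stood before the start in 6 of the 8 genes, and 9.01% of all 27025 genes with a window had one there. That share covers genes whether expressed or not. It was not matched for base content or number of windows, so no enrichment is read from it. The run lay 47 and 56 bases before the start in Chaf1a, 227 in Chaf1b, 48 in Uhrf1, 61 and 43 in Hells and 71 in Cdca7, and in Dnmt1 it lay 219 and 158 bases before the third of its annotated starts. Slbp and Asf1b, the genes without such a run, held CCAAT, as did Chaf1a, Dnmt1 and Uhrf1, and this shorter run occurred in 41.1% of all genes. The GRCm39 annotation placed the stretches of Chaf1b and Slbp outside any exon and the other 6 within exon 1, since it starts some genes upstream of the RefSeq start. No E2F-type run shared bases with CCAAT in these windows. A match of letters is no evidence of binding, and windows without one say nothing of any factor.

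Libraries held 3924674 to 10046158 reads assigned to transcripts per culture. The labels of the mouse GKRP vectors were checked on Gckr. It was at 57.1 ± 16.2 CPM in UN (SD, n = 3 mice) and at group means of 11480 to 17627 CPM with these vectors. The human sequence is not counted as mouse Gckr, and group means with the human GKRP vectors were 61.3 to 74.2 CPM. This check therefore covered neither the human vectors nor the proline and leucine labels. GK culture 5, of mouse 3, held 1460 CPM of Gckr against 51.8 to 98 in the other 5 GK cultures, and ratios to GK alone are given without it after the single genes. Hepatocyte markers were abundant, with a sum over 7 genes of 78655 to 118523 CPM in UN and 71835 to 139194 CPM with the vectors at endogenous GK. Of the markers of other cells, those with enough reads to be tested were 9 of 9 for macrophages, 6 of 6 for endothelial, 2 of 6 for stellate, 1 of 4 for biliary and 1 of 4 for lymphoid cells, and none of them was called in either direction with the vectors. The 9 macrophage markers summed to 257 to 340 CPM in UN and 234 to 310 CPM with the vectors, and 1 lymphoid marker was at 0 throughout.

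With the GKRP vectors at endogenous GK, 6 of the 8 genes were called higher than in UN and none lower, where a call required a Benjamini-Hochberg adjusted p below 0.05 in edgeR's quasi-likelihood test and a fold of at least 1.3 or at most 0.7. Of all genes tested, 1.49% were called higher and 1.89% in either direction. With GK overexpressed, 7 of the 8 were called higher with the vectors than with GK alone, against 1.11% of all genes called higher and 1.61% called in either direction. Because the genes were chosen on these values, nothing is read from the counts. The GKRP vectors with and without GK were set against different controls, but within each comparison the 4 vectors shared the same 3 control samples. In bulk RNA, fewer cells expressing a gene and less RNA per cell cannot be told apart.

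**Figure D1:**
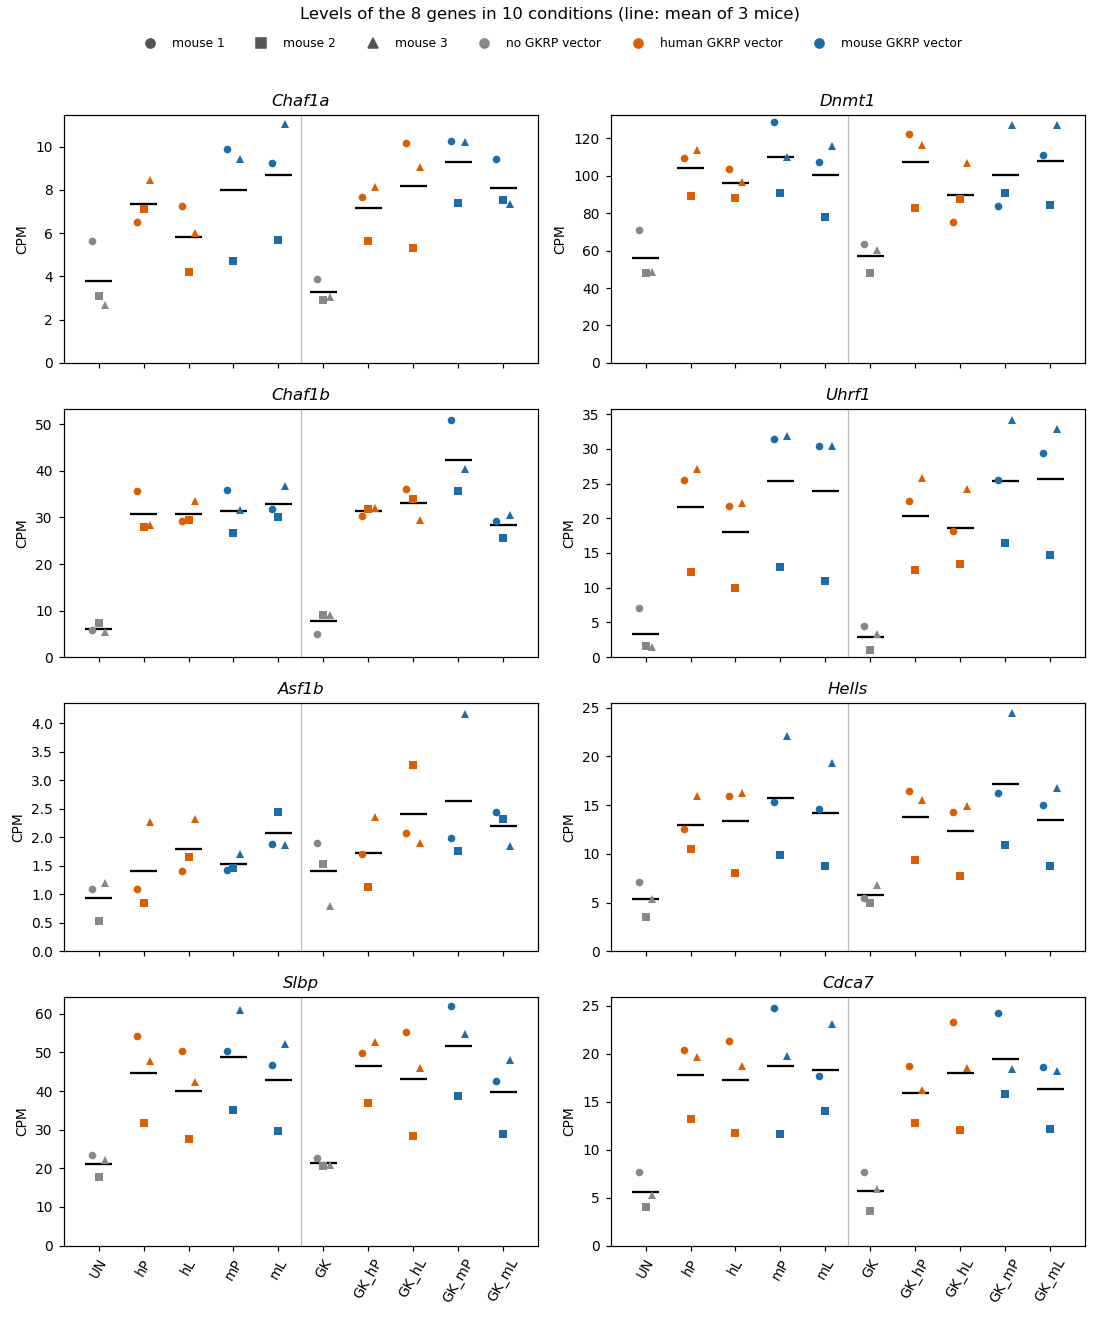
CPM of each of the 8 genes (linear axis from 0, a scale of its own per gene) in the 10 conditions, with 1 point per mouse, its shape showing the mouse and its colour the kind of vector, and a line at the mean of the 3 mice. Chaf1b sat between 5.44 and 7.27 CPM in UN and between 26.6 and 36.7 CPM with the 4 GKRP vectors, while the values of Asf1b overlapped between groups.

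Chaf1b (ENSMUSG00000022945, chr16:93680768-93703003 in GRCm39, plus strand), the middle subunit of CAF-1, is described first. It was at 5.74, 7.27 and 5.44 CPM in UN in mouse 1, mouse 2 and mouse 3, and the 12 samples with a GKRP vector ran from 26.6 to 36.7 CPM with a median of 30.9. With GK alone it was at 5.08, 9.08 and 9.03 CPM, and the 12 samples with GK and a GKRP vector ran from 25.6 to 51.0 CPM with a median of 32.0. All 12 lay above all 3 controls at both GK levels. The fitted ratio was 2.35 ± 0.17 on the log2 scale (SE) at endogenous GK, a 5.10-fold difference, and 2.11 ± 0.16 with GK. The highest value, 51.0 CPM, belonged to GK_mP in mouse 1.

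Chaf1a (ENSMUSG00000002835, chr17:56347303-56379289, plus strand), the large subunit of the same complex, had 23 to 71 reads per sample. It was at 5.64, 3.07 and 2.68 CPM in UN and at 4.21 to 11.05 CPM, median 7.18, with the vectors at endogenous GK. Mouse 1 had the highest UN value, and 10 of the 12 vector samples lay above it. With GK alone the values were 3.90, 2.91 and 3.04 CPM, and with GK and a GKRP vector they were 5.30 to 10.3 CPM, median 7.88, without overlap. The log2 ratio was 0.96 ± 0.26 at endogenous GK, which was not called, and 1.31 ± 0.27 with GK, which was. With mouse as a block, the endogenous-GK ratio of Chaf1a was 0.97 and was called. The call with GK was lost without mouse 1, without mouse 3 and with a transcript length offset. The ratio of Chaf1a at endogenous GK was 1.95-fold and that of Chaf1b, on 56 to 333 reads, 5.10-fold, and the difference between both subunits was not tested.

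Asf1b (ENSMUSG00000005470, chr8:84681589-84696978, plus strand), the histone donor of CAF-1 in cycling cells, was near the limit of these libraries, with 6 to 22 reads per sample. It was at 1.09, 0.525 and 1.19 CPM in UN and at 0.852 to 2.44 CPM, median 1.68, with the vectors. With GK alone it was at 1.91, 1.53 and 0.799 CPM, and with GK and a GKRP vector at 1.13 to 4.17 CPM, median 2.03. The groups overlapped at both GK levels, with 10 and 7 of 12 vector samples above the highest control. Its log2 ratios of 0.84 ± 0.35 and 0.65 ± 0.33 were not called.

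Slbp (ENSMUSG00000004642, chr5:33792296-33809969, minus strand), which protects and processes histone messenger RNA, was at 23.6, 17.7 and 22.1 CPM in UN and at 27.7 to 61.0 CPM, median 47.3, with the vectors. With GK alone the values were 22.6, 20.6 and 20.9 CPM, against 28.3 to 62.0 CPM, median 46.9, with GK and a GKRP vector. No vector sample overlapped the controls. The log2 ratio was 1.06 ± 0.24 at endogenous GK and 1.08 ± 0.24 with GK, both called. Both calls were lost without mouse 1, without mouse 3 and with the length offset, and that at endogenous GK also when only the conditions compared were fitted.

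Uhrf1 (ENSMUSG00000001228, chr17:56610275-56630489, plus strand), the reader of hemimethylated DNA, differed most between mice. In UN it was at 7.03 CPM in mouse 1 but at 1.57 and 1.42 CPM in mouse 2 and mouse 3. The 12 vector samples at endogenous GK ran from 9.89 to 31.9 CPM, median 23.8, all above the UN samples. With GK alone it was at 4.45, 1.09 and 3.28 CPM, and with GK and a GKRP vector it ran from 12.6 to 34.1 CPM, median 23.3, again without overlap. The log2 ratios were 2.75 ± 0.54 and 2.93 ± 0.55, both called. Their standard errors were the largest among the 8 genes in this fit, which had no term for mouse. With mouse as a block, the standard error at endogenous GK was 0.34 for Asf1b and 0.28 for Uhrf1. The ratio of Uhrf1 at endogenous GK was 2.15 without mouse 3, where it was not called and Chaf1b stood at 2.21, and 3.69 without mouse 1. Both calls were lost without mouse 3 and with the length offset, where the ratios were 3.20 and 3.43.

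Dnmt1 (ENSMUSG00000004099, chr9:20817945-20871184, minus strand), the enzyme that Uhrf1 brings to the fork, had the highest CPM of the 8 and a small ratio. It was at 71.0, 48.1 and 48.5 CPM in UN and at 77.8 to 128 CPM, median 105, with the vectors. With GK alone it was at 63.6, 47.8 and 60.3 CPM, and with GK and a GKRP vector at 75.1 to 127 CPM, median 98.6. Every vector sample exceeded every control at both GK levels, although the lowest vector value at endogenous GK was 77.8 CPM beside a highest UN value of 71.0. The log2 ratios were 0.87 ± 0.18 and 0.82 ± 0.18, both called. Both calls were lost without mouse 3 and with the length offset, and that with GK also without mouse 1, without mouse 2 and when only the conditions compared were fitted. The ratios of Uhrf1 and Dnmt1 at endogenous GK, 6.75-fold and 1.83-fold, were not tested against each other.

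Hells (ENSMUSG00000025001, chr19:38919359-38960047, plus strand), the remodeller needed for methylation of repeats, was at 7.13, 3.52 and 5.37 CPM in UN and at 8.06 to 22.1 CPM, median 14.96, with the vectors. With GK alone it was at 5.44, 5.01 and 6.79 CPM, and at 7.74 to 24.4 CPM, median 14.97, with GK and a GKRP vector. The groups did not overlap, but mouse 2 with a vector came close to mouse 1 without one. Log2 ratios of 1.401 ± 0.33 and 1.29 ± 0.32 were called. Both calls were lost without mouse 1, without mouse 3, with the length offset (2.88 and 1.33) and when only the conditions compared were fitted.

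Cdca7 (ENSMUSG00000055612, chr2:72306341-72317240, plus strand), the partner that recruits Hells to chromatin, was at 7.62, 3.97 and 5.29 CPM in UN and at 11.7 to 24.8 CPM, median 19.2, with the vectors. With GK alone it was at 7.62, 3.63 and 5.91 CPM, against 12.02 to 24.2 CPM, median 18.3, with GK and a GKRP vector. No value overlapped between the groups, and the log2 ratios of 1.68 ± 0.29 and 1.60 ± 0.28 were called. Both calls were lost without mouse 3, at 1.51 and 1.59, and with the length offset, at 0.97 and 1.89.

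All 12 vector samples lay above all 3 controls for 6 of the 8 genes at endogenous GK, a pattern that 1.95% of all genes tested had, and for 7 of the 8 with GK, against 1.63% of all genes. Leaving out GK culture 5 left the count called with GK at 7, with log2 ratios to GK alone of 1.48 for Chaf1a, 2.13 for Chaf1b, 0.54 for Asf1b, 1.08 for Slbp, 0.83 for Dnmt1, 3.12 for Uhrf1, 1.41 for Hells and 1.57 for Cdca7. One mouse weighed on these counts, since without mouse 3 only Chaf1b was called at either GK level, while 4 members at endogenous GK and 3 with GK were called without mouse 1, and 6 and 6 without mouse 2. Calls over all genes fell as well, at endogenous GK from 230 to 39 without mouse 3, 119 without mouse 1 and 140 without mouse 2, and with GK from 196 to 28, 122 and 138.

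The 4 vectors were also fitted one at a time. Against UN, hP called 4 members, hL 2, mP 6 and mL 3, while the share of all genes called higher was 0.706%, 0.805%, 0.994% and 0.912%. Against GK alone, GK_hP called 4 members, GK_hL 3, GK_mP 7 and GK_mL 4, and the shares of all genes were 0.632%, 0.468%, 1.03% and 0.558%. Chaf1b and Cdca7 were called in all 8 of these comparisons, Uhrf1 in 7, Dnmt1 in 5, Slbp and Hells in 2 each, Chaf1a in 1 and Asf1b in none. Slbp and Hells passed with the mouse GKRP-446P vectors, mP and GK_mP. The fitted values of a gene lay closer together than these counts, with Chaf1b at log2 ratios of 2.31 to 2.42 over the 4 vectors at endogenous GK, Cdca7 at 1.62 to 1.74 and Uhrf1 at 2.46 to 2.96. For Dnmt1 the 4 ratios ran from 0.78 to 0.97 and for Hells from 1.29 to 1.57. With GK, Chaf1b spread more widely, from 1.87 with GK_mL to 2.45 with GK_mP.

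**Figure D2:**
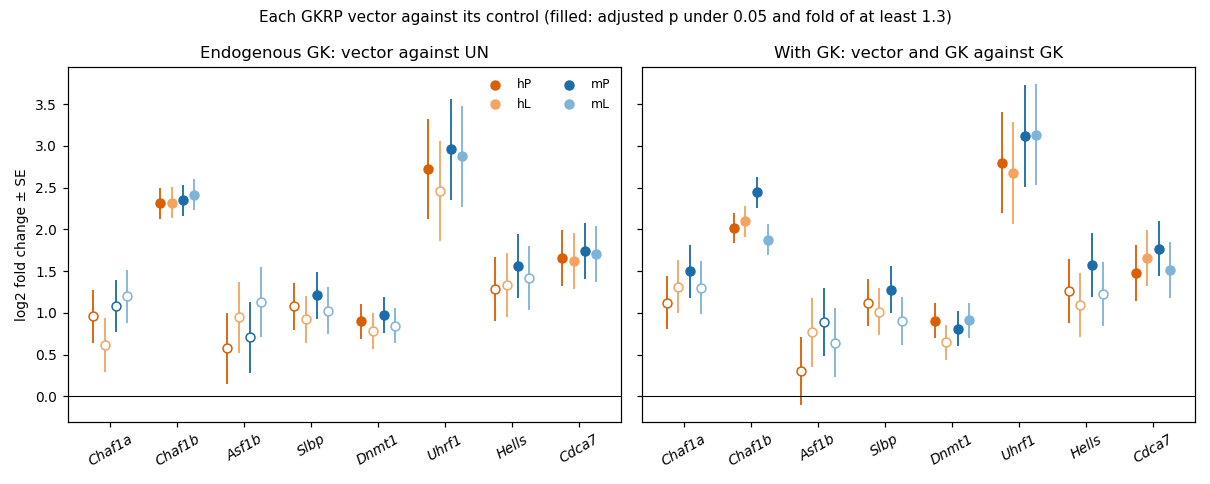
Log2 fold change of each gene with each of the 4 GKRP vectors against UN (left) and, with GK, against GK alone (right), as the fitted value with its standard error. Filled points were called, which holds for Chaf1b and Cdca7 with every vector, and the 4 values of Chaf1b at endogenous GK, 2.31 to 2.42, lie within each other's errors.

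GK alone was compared with UN, and none of the 8 genes was called, against 0.00821% of all genes. No member had an unadjusted p below 0.05 in edgeR, and DESeq2 also called none. Fitted log2 ratios ran from -0.20 for Chaf1a to 0.59 for Asf1b, and that of Chaf1b was 0.33 ± 0.18 with 2 of 3 mice above 0. Dnmt1 and Cdca7 had ratios of 0.04 and 0.03, but with the length offset these were -0.58 and -0.78, that of Slbp moved from 0.01 to -0.46 and that of Hells from 0.11 to 0.93, none of them called. Without GK culture 5, Chaf1a was at -0.37, Uhrf1 at -0.35 rather than -0.16 and Hells at 0.00. Chaf1b in GK samples, at 7.73 ± 2.29 CPM (SD, n = 3 mice), overlapped the UN samples at 6.15 ± 0.98 CPM.

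4 further questions rested on other contrasts of the same samples. CPM in all conditions was known at the selection, so these tests are not independent of it. Each was run over all 12177 genes with edgeR's quasi-likelihood test and Benjamini-Hochberg adjustment. This fit had no term for mouse, although samples of 1 mouse are paired, so its p-values and 95% intervals hold differences between mice. No member was called with mouse as a block in any of the 4 either. The first was whether GK overexpression changed the genes in cultures that already had a GKRP vector. None of the 8 was called, against 0.0164% of all genes, with 0 at an unadjusted p below 0.05 and 0 called by DESeq2. Asf1b had the largest difference, 0.40 on the log2 scale (95% interval -0.04 to 0.84, adjusted p 0.793), higher with GK in 3 of 3 mice. Chaf1b differed by 0.09 (-0.09 to 0.27, adjusted p 0.927) and Dnmt1 by -0.02 (-0.24 to 0.20, adjusted p 1.00). Cdca7 had the lowest difference, -0.05 (-0.39 to 0.28, adjusted p 0.997), and Uhrf1, at 0.01, had an interval of -0.56 to 0.59. The interval of Uhrf1 was the widest of the 8 and that of Chaf1b the narrowest. For single vectors, Chaf1b was higher with GK_mP than with mP by 0.43 (0.07 to 0.80) in 3 of 3 mice, with an unadjusted p of 0.0222 and an adjusted p of 0.935 by edgeR, which failed the correction.

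The second question was whether the ratio with the vectors differed between GK levels, tested as an interaction. No member and no other gene was called (0% of all genes), with 0 members at an unadjusted p below 0.05 and 0 called by DESeq2. The difference of log2 ratios ran from -0.24 for Chaf1b (-0.66 to 0.18) to 0.34 for Chaf1a (-0.39 to 1.08), with adjusted p 1.00 for both by edgeR. That Chaf1a was called at one GK level and not at the other was thus no sign of a difference between them. Uhrf1 had the widest interval, -1.22 to 1.57 around 0.18.

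The third was whether GKRP-446L and GKRP-446P differed, the variant being the common human leucine substitution that the study was about. None of the 8 was called, against 0.00821% of all genes, with 0 at an unadjusted p below 0.05 and 0 called by DESeq2. Log2 differences, leucine minus proline over both species and both GK levels, ran from -0.21 for Slbp (95% interval -0.50 to 0.09, edgeR adjusted p 1.00, lower in 3 of 3 mice) to 0.25 for Asf1b (-0.19 to 0.69, adjusted p 1.00, higher in 2 of 3). The other 6 were fitted lower with leucine, by -0.04 for Cdca7 to -0.15 for Hells. Over the alternatives, fitted with edgeR or DESeq2, the lowest adjusted p of Slbp was 0.103. Dnmt1 differed by -0.10 (-0.32 to 0.12). Among the single pairs of vectors, Chaf1b was lower with GK_mL than with GK_mP by -0.57 (-0.94 to -0.21), in 3 of 3 mice, with an unadjusted p of 0.00369 and an adjusted p of 1.00 by edgeR, so the difference failed the correction over all genes. In that pair Chaf1b was at 28.5 ± 2.56 CPM with GK_mL and 42.3 ± 7.87 CPM with GK_mP (SD, n = 3 mice), and the same pair without GK, mL and mP, had 32.9 ± 3.41 and 31.4 ± 4.64 CPM.

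The fourth was whether mouse and human GKRP differed, and again none of the 8 was called, against 0.00821% of all genes, with 0 at an unadjusted p below 0.05 and 0 called by DESeq2. All 8 were fitted higher with mouse GKRP, from 0.07 for Slbp (-0.22 to 0.36) to 0.36 for Uhrf1 (-0.21 to 0.93), each with adjusted p 1.00 by edgeR. Chaf1a was higher by 0.27 (-0.06 to 0.59) in 3 of 3 mice. Between GK_mP and GK_hP, Chaf1b was higher with the mouse protein by 0.43 (0.06 to 0.79) in 3 of 3 mice, with an unadjusted p of 0.023 and an adjusted p of 0.992 by edgeR, which also failed the correction. This pair, GK_mL with GK_mP and GK_mP with mP share the GK_mP samples.

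**Figure D3:**
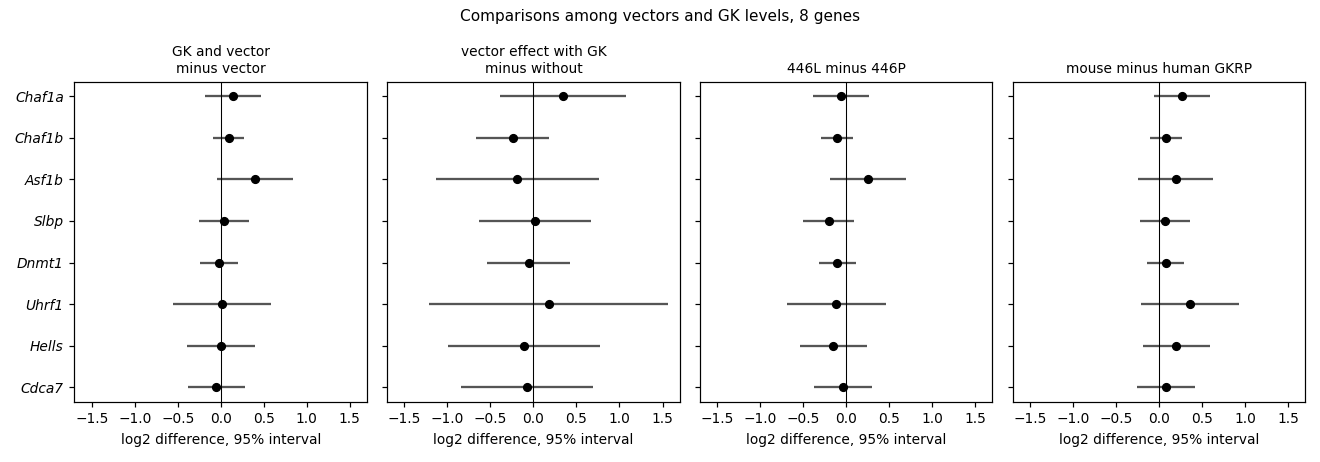
Fitted log2 differences of the 8 genes with 95% intervals in the tested comparisons: GK with the vectors, the interaction, GKRP-446L against GKRP-446P, and mouse against human GKRP. All intervals crossed 0 in this fit, which had no term for mouse, and the widest was that of Uhrf1 in the interaction, -1.22 to 1.57.

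The mice differed in level. Mouse 2 had the lowest value in 52 of the 64 sets of gene and vector condition, mouse 1 in 7 and mouse 3 in 5. Slbp, Uhrf1, Hells and Cdca7 were lowest in mouse 2 in all 8 vector conditions. Averaged over the 8 vector conditions, Uhrf1 was at 25.6, 12.9 and 28.6 CPM in mouse 1, mouse 2 and mouse 3, and Slbp was at 51.5, 32.1 and 50.6 CPM. Chaf1b was the more even gene, at 34.9, 30.2 and 32.9 CPM. With 1 animal labelled Gckr-446P/L, genotype and animal cannot be told apart, and no test of the mice was made.

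Ratios over each mouse's own control were ordered differently from the levels. All 8 genes had a ratio above 0 in each of the 3 mice at both GK levels, the lowest being 0.08 for Asf1b in mouse 1 with GK. At endogenous GK the ratio was highest in mouse 3 for 7 of the 8 genes and lowest in mouse 1 for 6. Uhrf1 had log2 ratios of 1.90, 2.66 and 4.04 in mouse 1, mouse 2 and mouse 3, on UN values of 7.03, 1.57 and 1.42 CPM. Because the UN value is the denominator, a low one raises the ratio, and nothing is read from their opposite order. Chaf1a had ratios of 0.50, 0.74 and 1.57 in the 3 mice. With GK, mouse 3 had the highest ratio for 4 of the 8, and Chaf1b had its highest, 2.75, in mouse 1.

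**Figure D4:**
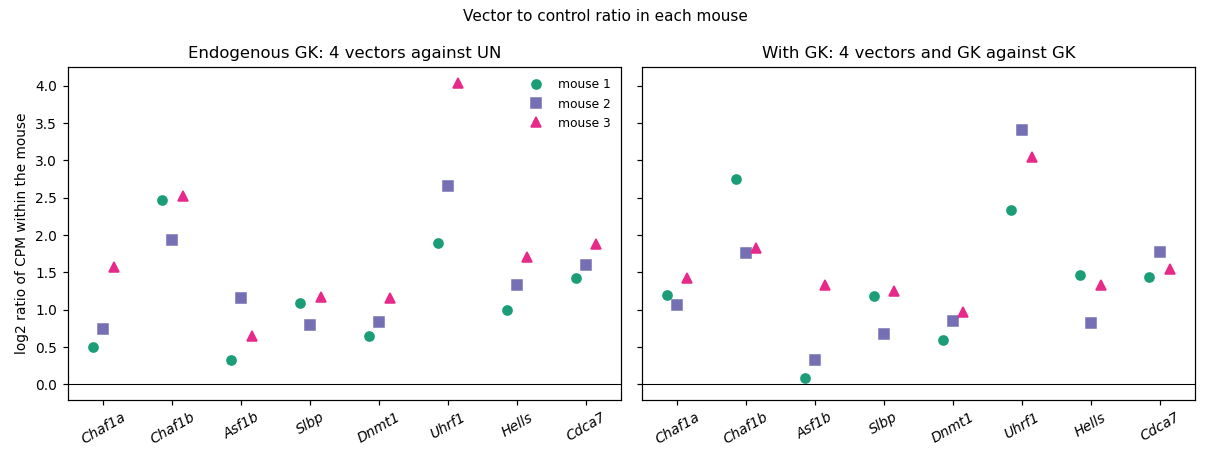
Log2 ratio of CPM with the GKRP vectors to CPM without them within each of the 3 mice, against UN (left) and, with GK, against GK alone (right), 1 point per mouse and gene. All points lie above 0, and Uhrf1 in mouse 3 is the highest at endogenous GK, at 4.04.

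Over the 30 samples, log2 CPM of the 28 pairs of members correlated with Pearson's r of 0.448 to 0.960 and a median of 0.865. Uhrf1 and Cdca7 formed the closest pair, and the 7 lowest values were all of pairs with Asf1b, the gene with the fewest reads. These samples share 3 mice and 10 conditions, so r was also taken over deviations from the condition means. There the median was 0.601, Slbp and Hells were at 0.882, and Chaf1b fell to between -0.31 with Asf1b and 0.30 with Slbp. For Chaf1b and Uhrf1, r was 0.858 over the samples and 0.03 over the deviations. Correlations over the samples hold the differences between conditions that were known when the genes were chosen, so they are no finding. The genes outside the list whose log2 CPM followed the mean of the 8 standardised genes most closely over the 30 samples were Mcm2 (r 0.977), Mcm5 (0.976), Lig1 (0.975), Cdk2 (0.963) and Mcm3 (0.959). Mcm2, Mcm5 and Mcm3 encode subunits of the replicative helicase, Lig1 joins Okazaki fragments, and Cdk2 is a kinase of the cell cycle. Mcm5 was at means of 6.81 CPM in UN and 40.5 CPM with the vectors at endogenous GK, and Mcm2 was at 12.05 and 49.2 CPM.

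Related genes were then counted, on lists that hold no member, of which Mcm2 and Pcna stand on 2. Of 20 other genes of histone chaperoning and chromatin assembly, 7 were called higher with the vectors at endogenous GK and none lower (1.49% of all genes were called higher), with a median log2 ratio of 0.18, and 5 (1.11% of all genes) were called higher with GK, with a median of 0.23. The median of all genes tested was 0.00 at endogenous GK and 0.01 with GK. Mcm2, which also binds histones at the fork, was the highest of the list at 2.03, and Ipo4, an importer of histones, was the lowest at -0.06. Of 20 other genes of DNA methylation and demethylation, 17 were tested, 2 were called higher at each GK level, beside the same 1.49% and 1.11%, and the medians were 0.07 and 0.01. Those called were Lig1, at 1.75, and Mbd1, a binder of methylated DNA, at 1.27 (109 CPM in UN and 263 CPM with the vectors). Usp7, which deubiquitinates Dnmt1 and Uhrf1, was at -0.17.

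Of 11 further genes of histone messenger RNA processing, 10 were tested and none was called at either GK level, with medians of 0.13 and 0.13. Casp8ap2 was the highest at 0.78 and Sympk the lowest at -0.12, beside 1.06 for Slbp. Only 7 of 67 replication-dependent histone genes, the messages that Slbp binds, had enough reads to be tested. None of these 7 was called, and their medians were -0.33 at endogenous GK and -0.03 with GK. H2ac25 was the highest at 0.26 ± 0.39 (SE). H2bc8 was the lowest at -4.25 ± 1.36 (SE), on 1.58 ± 1.45 CPM in UN (SD, n = 3 mice) and 0.208 CPM with the vectors. Standard errors ran from 0.13 for H2bc4 to 1.69 for H2ac18, so the median is not read as a fall or as no rise. These genes are near-identical copies, so the assignment of reads between them is uncertain. Of 14 S-phase genes, 12 were called higher at each GK level, beside the 1.49% and 1.11% of all genes, with medians of 1.84 and 1.76. Log2 ratios at endogenous GK ran from 0.06 ± 0.75 (SE) for Rrm2 to 3.59 ± 0.39 for Chek1, the kinase of the replication checkpoint. Rrm2 was at 79.5 ± 69.9 CPM in UN (SD, n = 3 mice). Of 10 mitosis genes 3 were tested, and Cdk1 was called at endogenous GK, at 2.30 ± 0.61 (SE), on 0.58 CPM in UN. Mki67, the proliferation marker, was at -0.03 ± 0.88 (SE), on 1.63 ± 1.85 CPM in UN (SD, n = 3 mice). That error is too wide to read Mki67 as unchanged. With GK, none of the 3 was called with the vectors. No gene on any of these lists was called with GK alone.

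**Figure D5:**
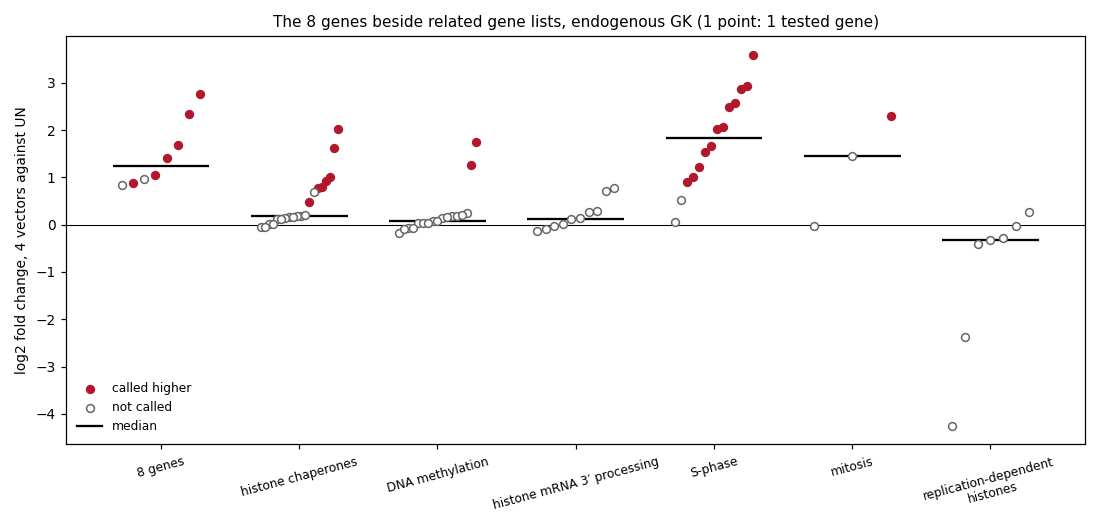
Log2 ratios with the GKRP vectors at endogenous GK for the 8 genes and for the tested genes of 6 related lists, 1 point per gene, filled where called higher, with a line at the median of each list. The S-phase genes have a median of 1.84 and the DNA methylation list one of 0.07. The median of the histone genes, -0.33, rests on 7 of 67 genes, most of them with few reads.

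Paralogs of the members were set beside them. Asf1a, the other copy of the Asf1 chaperone, ran from 3.36 to 6.07 CPM in UN and from 5.62 to 14.2 CPM with the vectors, with a log2 ratio of 0.93 ± 0.22 that was called, and 0.72 ± 0.22 with GK that was not. Uhrf2, the relative of Uhrf1, was at 46.3 to 51.9 CPM in UN and 48.7 to 64.3 CPM with the vectors, ratios of 0.15 and 0.02, neither called. Dnmt3a, a de novo methyltransferase, had ratios of 0.18 and -0.20, and Dnmt3b, on few reads, 0.25 and 0.37, none of them called. Cdca7l was too low to be tested. The difference of Dnmt1 and Uhrf1 from their paralogs was itself not tested.

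Levels of different genes can be compared only per length, as TPM, Salmon's level per transcript length scaled to 1 common total. In UN the order by TPM was Dnmt1 (20.1 ± 4.42, SD, n = 3 mice), Slbp (14.7 ± 1.37), Cdca7 (7.63 ± 3.76), Chaf1b (3.56 ± 0.98), Hells (1.82 ± 0.71), Uhrf1 (1.10 ± 1.42), Chaf1a (0.593 ± 0.201) and Asf1b (0.586 ± 0.347). From Hells down, each gene differed from the next by less than the larger of both SDs, and the order above Hells was wider than that spread. With the vectors at endogenous GK, Slbp was at 28.2 ± 12.5 TPM, Dnmt1 at 26.4 ± 8.05, Chaf1b at 22.6 ± 5.60 and Hells at 13.7 ± 13.985 (SD over 12 samples of 3 mice), so neighbours in this order lay within their spread. With GK alone, Dnmt1 was at 11.3 ± 2.81 TPM and Cdca7 at 3.00 ± 1.21 TPM.

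Some ratios also differed on the TPM scale, which divides reads by the length of the transcript to which they were assigned. The reason for these differences was not tested. The log2 ratio of mean levels with the vectors over UN was 0.32 for Cdca7 on TPM beside 1.68 on CPM, 0.39 beside 0.88 for Dnmt1, and 2.91 beside 1.401 for Hells. It was 2.67 beside 2.35 for Chaf1b, and for Chaf1a, Asf1b, Slbp and Uhrf1 the scales differed by less than the spread between mice. For Cdca7, the longest transcript (2424 bases) took 75.7% ± 8.55 of the reads in UN and 92.3% ± 10.7 with the vectors. The longest Hells transcript (5868 bases) took 82.5% ± 4.08 and 78.1% ± 8.20. Its shortest (190 bases) took 0% in UN and 0.24% ± 0.62 with the vectors. The TPM of Hells was uneven over the vectors, at 27.2 ± 24.3 with hL, 11.3 ± 8.44 with mL, 8.96 ± 5.83 with mP and 7.45 ± 1.79 with hP. For Chaf1b the share of the coding transcript of 1922 bases was 29.8% ± 51.7 in UN and 72.0% ± 27.9 with the vectors, with a coding transcript of 1894 bases taking most of the rest, a spread too wide to compare. When transcript length entered the edgeR fit as an offset, 1 member, Chaf1b, was called at each GK level, with log2 ratios of 2.32 and 2.02, while the fitted ratios of all 8 stayed above 0. For Cdca7 the ratio at endogenous GK was then 0.97, and for Hells it was 2.88.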

How the data were processed

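Libraries came from 36 cultures of primary mouse hepatocytes. Per the methods and the processing notes, reads were checked with FastQC, not trimmed, and quantified by the authors with Salmon 1.4.0 against the Gencode M26 transcripts of GRCm39. The authors deposited, for each culture and 139225 transcripts, expected counts (estimated counts of reads, not normalized) and TPM (levels per effective length, scaled to 1 common total). Salmon's effective lengths were used for the length offset alone.

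Here, 98.8% of the transcripts were matched to genes, the 1655 others holding 0.392% to 0.639% of the reads. Expected counts were summed per gene, rounded to whole numbers, and summed over the cultures of a mouse and condition, which gave 30 samples. The cultures of 1 mouse differed beyond sampling noise (chi-square per degree of freedom 4.33 to 29.6). Genes passing edgeR's filterByExpr (12177) were fitted with edgeR 4.0.16 (R 4.3.3, quasi-likelihood, TMM scaling) with a term per condition and none for mouse. A gene was called at a Benjamini-Hochberg adjusted p below 0.05 with a fold of at least 1.3 or at most 0.7. Ratios per mouse are differences of log2 CPM with a prior count of 2. Group comparisons averaged the 4 vectors. The 8 members and the related lists, the genes named with their values, were chosen with earlier results of these data known. Within a list, the genes named are those called, where they are few, and those with the highest and the lowest ratio. P-values and 95% intervals rest on the spread of samples about their condition means, pooled over the 10 conditions. The samples of 1 mouse were treated as independent in this fit.

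Samples of 1 mouse are paired by the animal. Their deviations from the condition means correlated with a mean r of 0.223 (over 0.1 in 82.2% of 135 pairs), against -0.149 between mice, and a fit with mouse as a block was an alternative. The other alternatives were RLE scaling, DESeq2 1.42.0, no filter, at least 1 CPM in 15 samples, each culture as a sample, the length offset, only the conditions compared, and leaving out each mouse in turn. Leaving out GK culture 5 was added after seeing the data. No sequence of the proteins was used here. The check of the GK vector on its own transcript is not reported here.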

Additional observations from a re-analysis of the deposited data

Results flagged for a closer look

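In 18 groups of 6 cultures (the 8 genes and Gckr, in UN and in GK), 1 value stood apart by Dixon's test at its 95% critical value, which flags about 1 in 20 groups by chance. Gckr was at 1460 CPM in GK culture 5, of mouse 3, against 51.8 to 98 CPM in the other 5 GK cultures, with a gap of 0.967 of the range. None of the 8 genes had such a culture, and Chaf1b, for example, ran from 4.54 to 9.35 CPM over the 6 GK cultures. Without this culture, 7 members were again called higher with the vectors and GK than with GK alone. The source of these Gckr reads was not tested.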

How the results depend on the processing

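The count of members called with the GKRP vectors, 6 at endogenous GK and 7 with GK, moved most under 2 kinds of alternative. With transcript length as an offset it was 1 and 1, and the cause was not tested. Leaving out a mouse gave 1 to 6 at each GK level (without mouse 3, 1 and 1, and 3 with GK without mouse 1), and with fewer samples the test had fewer degrees of freedom. The other alternatives gave 4 to 7 and 5 to 7, with 4 at endogenous GK when only the conditions compared were fitted. The replicate block for mouse gave 7 and 7, adding Chaf1a at endogenous GK, and it changed no other call of a member. No member was called by any alternative in the other 5 comparisons, and no called ratio changed sign.

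Counts over all genes were less stable. At endogenous GK 230 genes were called with the vectors, 506 with the block, 553 with DESeq2 and the block, 417 with each culture as a sample, 33 with the length offset and 39 to 140 without 1 mouse. With GK, 196 became 528, 590, 384 and 24 under the same settings, 301 with DESeq2, 125 with only the conditions compared and 28 to 138 without 1 mouse. For GK against UN 1 became 44 with the block, 32 with DESeq2, 106 with both, 39 with each culture and 6 without the filter. For GK with the vectors 2 became 17 with the block, 25 with DESeq2 and 27 with both. For GKRP-446L against GKRP-446P 1 became 59, 26 and 96, for mouse against human GKRP 1 became 14 with DESeq2 and 20 with both, and for the interaction 0 became 20 and 45. Asf1b had 6 to 22 reads per sample, and 7 of 67 histone genes had enough reads to be tested, for reasons not tested here.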
